A study of Mus musculus with 32 samples.

Results

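The nuclear-encoded genes of the respiratory chain and of ATP synthase were examined in 4 organs of cisplatin-treated mice. Members were the protein-coding genes whose symbols begin with Nduf, Uqcr or Atp5, the genes Sdha to Sdhd, and the genes of the series Cox4 to Cox8, taken from the GENCODE M21 annotation of the mouse genome. The rule found 91 members among the 25041 genes of the tables that have a position in the annotation. A further 3 entries that the rule matches, Cox8c and both identifiers of Atp5o, were not analysed here. The subunits encoded in the mitochondrial genome were not analysed here either. The mice were wild-type C57BL/6J females aged 6 to 7 months. Treated mice received a single intraperitoneal dose of 10 mg of cisplatin per kg of body weight and control mice the same volume of saline. The protocol gives 4 h between injection and killing, while the sample labels give 2 h. Kidney, liver, lung and spleen each gave 2 Damage-seq and 2 XR-seq libraries from treated mice and 2 RNA-seq libraries from treated and 2 from control mice. Damage-seq reads mark platinum adducts still present in the DNA, XR-seq reads are the short oligomers excised around an adduct, and RNA-seq reads count transcripts. Whole organs were used, so a lower level in such bulk RNA cannot be told apart between fewer cells of a type and less RNA per cell.

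The respiratory chain passes electrons from NADH and succinate to oxygen through complexes I to IV of the inner mitochondrial membrane, and ATP synthase uses the proton gradient that results. Most subunits are encoded in the nucleus, translated in the cytosol and imported, and their genes are transcribed in nearly all cells, above all in tissues with a high demand for ATP such as heart, brown fat and the tubules of the kidney. Some complex IV subunits exist as pairs of isoforms, a widely expressed form and a form restricted to muscle, brown fat, lung or testis. Cisplatin joins adjacent guanines (GG) on a strand, and nucleotide excision repair removes these adducts faster from the transcribed strand (TS) than from the non-transcribed strand (NTS) of an active gene.

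The isoform pair Cox8a and Cox8b shows the contrast on which several results below turn, since both encode subunit 8 of complex IV. Their 250 bases upstream of the RefSeq start site are printed with those of Cox5a, the member that differed in both strands of kidney XR-seq, and of Ndufaf4, the member with the largest RNA difference in treated kidney. Cox8a lies at chr19:7217617-7217866 on the minus strand, Cox8b at chr7:140900447-140900696 on the minus strand, Cox5a at chr9:57520982-57521231 on the plus strand and Ndufaf4 at chr4:24897833-24898082 on the plus strand of GRCm38.p6, all 5′ to 3′. Capitals mark a match to the NRF1 motif, in which any base is allowed at the sixth place, on either strand, NRF1 being a factor known to act on many respiratory chain promoters.
Cox8a: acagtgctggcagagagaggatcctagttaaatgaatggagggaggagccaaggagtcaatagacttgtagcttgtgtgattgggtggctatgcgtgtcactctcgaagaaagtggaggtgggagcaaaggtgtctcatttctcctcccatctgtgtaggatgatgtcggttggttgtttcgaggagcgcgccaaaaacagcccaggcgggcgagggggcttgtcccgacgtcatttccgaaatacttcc
Cox8b: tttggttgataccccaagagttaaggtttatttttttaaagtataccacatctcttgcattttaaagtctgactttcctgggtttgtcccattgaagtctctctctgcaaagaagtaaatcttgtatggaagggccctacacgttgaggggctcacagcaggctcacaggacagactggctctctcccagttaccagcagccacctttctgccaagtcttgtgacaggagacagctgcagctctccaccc
Cox5a: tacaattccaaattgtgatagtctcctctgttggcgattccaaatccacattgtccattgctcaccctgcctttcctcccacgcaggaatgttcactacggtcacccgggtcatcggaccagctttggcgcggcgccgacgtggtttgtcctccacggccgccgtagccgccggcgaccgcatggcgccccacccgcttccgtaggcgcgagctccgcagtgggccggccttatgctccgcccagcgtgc
Ndufaf4: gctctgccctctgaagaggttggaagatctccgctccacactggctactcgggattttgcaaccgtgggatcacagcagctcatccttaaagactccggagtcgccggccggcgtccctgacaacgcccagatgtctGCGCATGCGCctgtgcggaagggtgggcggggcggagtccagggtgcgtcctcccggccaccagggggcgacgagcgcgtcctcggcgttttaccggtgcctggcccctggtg
The NRF1 match of Ndufaf4 begins 113 bases before the start site, and the windows of Cox8a, Cox8b and Cox5a hold none. A RefSeq promoter, running from 250 bases before to 50 bases after the start, was given for 73 of the 91 members. Of these, 18 (24.7%) held the NRF1 motif against 5.19% of 27025 genes. The motif CCGGAAG of GABP was also in 24.7% of the members' windows, against 9.93% of all genes. The motif AAGATGGC of YY1 was in 13.7% against 3.19%, and AAGGTCA, bound by the ERR receptors, in 11.0% against 5.38%. The TATA box letters TATAAA were in 9.59% of members and 15.7% of all genes, and 39 members held at least 1 of the NRF1, GABP and YY1 motifs. Each motif was searched on both strands, no pair of these motifs contains the other, and the motifs were chosen after their shares had been seen. A match describes letters in the window and is not shown to be a bound site.

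The depth ranged from 15619474 to 162270280 reads on genes in RNA-seq, from 10658675 to 59779770 in XR-seq and from 1571167 to 6441367 in Damage-seq. The members took between 2.81% and 3.11% of RNA-seq reads in kidney, between 1.12% and 1.85% in liver, and between 0.720% and 1.10% in lung and spleen. A note with the data states that, in a correction, control and cisplatin labels were exchanged for the RNA-seq of lung and spleen. The present labels were used, and Cdkn1a, a p53 target that DNA damage induces, was higher in both libraries labelled cisplatin than in both labelled control in all 4 organs, for example 42.2 and 40.3 RPKM in lung controls against 141 and 165. The study describes its pairs as biological replicates, but the 2 control libraries of lung and those of spleen lay close to the noise of read sampling (chi-square over its degrees of freedom 2.75 and 2.98, against 39.3 to 349 for the other RNA-seq pairs). Each of these 2 pairs was therefore counted as 1 sample. Pairs were merged in RNA-seq only. The Damage-seq pairs had values of 1.43 to 3.11, and their libraries were still counted as replicates. Damage-seq p-values may therefore measure little more than the noise of read sampling. Where libraries of a pair do not come from separate mice, p-values measure only the spread between libraries. Umod, a marker of kidney, Alb of liver and Sftpc of lung were each highest in the organ named by the label. Markers of other tissues differed between the groups in lung and spleen, and their values are given beside the members there.

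In control organs the members' RPKM was highest in kidney, an order that over liver depended on the scaling. The median member stood at 130 and 119 RPKM (reads per kilobase of exon per 1000000 reads on genes, computed here from the counts) in the control libraries of kidney, with liver at 52.9 and 68.9, lung at 55.0 and 56.4 and spleen at 31.46 and 30.99. Both kidney libraries lay above all other control libraries, the ranges of liver and lung overlapped, and spleen was lowest. The median over the 16502 genes that passed the strand filter described below was between 0.951 and 3.34 RPKM in the same libraries. The exon length used merges all annotated exons of a gene, 6443 bases for Atp5l, so levels of different genes compare only roughly. By role, control kidney held medians of 271 and 248 RPKM for the 4 subunits of complex II, 258 and 234 for the 8 of complex III, and 249 in both libraries for the 11 of complex IV. The 15 ATP synthase subunits had medians of 166 and 128 RPKM, the 7 core subunits of complex I 142 and 126, and the 29 accessory subunits of complex I 90.1 and 106. The 8 assembly factors of complex I, which are not part of the finished enzyme, stood at 19.3 and 14.2 RPKM, and the 7 tissue-restricted isoforms at 2.74 and 3.33. The order of complexes II, III and IV in kidney does not exceed the spread between its libraries, whereas the median of the assembly factors lay below those of the complex I to IV and ATP synthase subunits in all 8 control libraries.

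**Figure D1:**
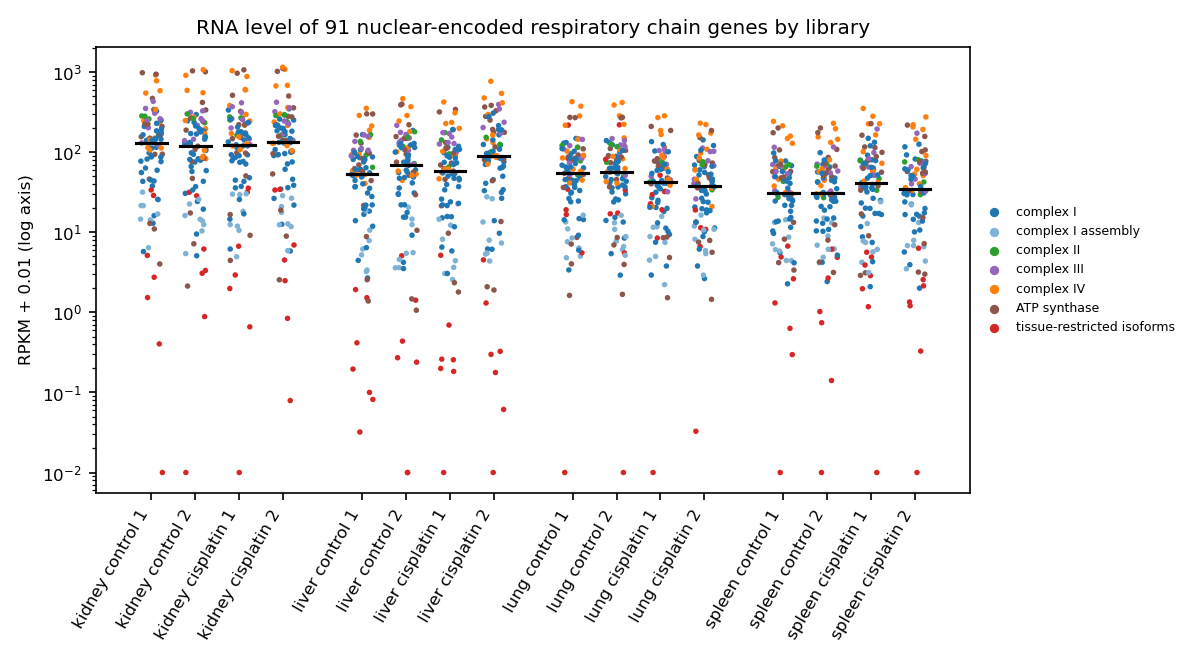
RNA level of the 91 members (points, RPKM plus 0.01 on a log axis) in each of the 16 RNA-seq libraries, coloured by complex, with the median of all members as a black bar. Medians run from 119 to 133 in kidney and from 30.99 to 41.8 in spleen, and the tissue-restricted isoforms hold the lowest points.

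The most abundant members of control kidney were the catalytic subunits of ATP synthase and the small subunits of complex IV. Atp5b, the beta subunit, which lies at chr10:128083273-128090391, was at 987 and 1041 RPKM in kidney, with liver at 301 and 391, lung at 271 and 269 and both spleen libraries at 176. Atp5a1, the alpha subunit, was at 946 and 1015 RPKM in kidney and 202 and 201 in spleen. For both catalytic subunits kidney lay above every other control library and spleen below. Cox6a1 followed at 924 and 915 RPKM in kidney, and Cox8a at 782 and 1077. Cox4i1, the widely expressed form of subunit 4, was at 549 and 554 RPKM in kidney, with liver at 188 and 246, lung at 218 and 223 and spleen at 149 and 145. The common forms of the other paired subunits were at 589 and 594 RPKM for Cox6b1, 249 in both libraries for Cox7a2, 233 and 171 for Cox7b and 344 and 275 for Ndufa4 in kidney, and each was lower in every other control library. In complex II, which also serves the tricarboxylic acid cycle, Sdha was at 282 and 302 RPKM in kidney and 65.9 and 67.0 in spleen. Sdhb was at 261 and 234 against 43.4 and 42.8, and the membrane anchors Sdhc at 162 and 156 against 27.4 and 27.1 and Sdhd at 284 and 263 against 70.4 in both spleen libraries. All 4 genes of the complex were thus far apart between these organs. Cox7a2l, which helps join complexes III and IV into supercomplexes, did not follow this order, with 107 and 86.6 RPKM in kidney and 130 and 133 in spleen.

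Tested against a log2 fold change of 0.4, 74 of 90 members were called higher in control kidney than in control spleen (edgeR, adjusted p under 0.05), against 45.2% of all genes tested called in either direction and 21.3% called higher. The median log2 difference of the members was 1.96, and that of all genes -0.16. All 7 core subunits of complex I, all 8 of complex III, all 11 of complex IV and all 4 of complex II were called, with 12 of 15 ATP synthase subunits, 25 of 29 accessory subunits of complex I and 4 of 8 assembly factors. The largest log2 differences among them were 7.45 for Cox8b, 5.06 for Cox7a1, 2.78 for Ndufb8, 2.77 for Ndufv1, 2.72 for Sdhc and 2.71 for Atp5g1, with edgeR adjusted p-values from 0.000179 to 0.00368. Ndufv1 carries the NADH site of complex I and Sdhc anchors complex II in the membrane. With 1 kidney control library left out, 58 and 65 members were called, beside 36.3% and 40.8% of all genes.

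Against control lung, 39 of 90 members were called, 35 higher and 4 lower in kidney, beside 32.4% of all genes tested (12.9% higher and 19.5% lower). The median log2 difference was 1.37 for members and -0.09 for all genes. Atp5g1 (2.98), Atp5g3 (2.55) and Atp5b (2.16) differed most among those higher in kidney, and Atp5g1 and Atp5g3 encode the same mature c subunit of the proton rotor. The members lower in kidney were all tissue-restricted isoforms, Cox4i2 (-5.36), Cox8b (-2.69), Cox6a2 (-2.63) and Ndufa4l2 (-2.24). Among these isoforms the edgeR adjusted p-values ran from 4.73e-05 for Cox4i2 to 0.0255 for Cox8b. The calls rested in part on both kidney libraries, since 20 and 21 members were called with 1 of them left out, beside 26.1% and 26.3% of all genes.

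Against control liver only 5 of 90 members were called, all higher in kidney, beside 31.8% of all genes (18.3% higher). They were Cox8b (log2 difference 5.63), Cox6a2 (5.24), Cox6b2 (3.67), Cox7a1 (2.28) and Atp5s (1.30). The median log2 difference of members was 0.21 and that of all genes 0.01. This comparison depended on the scaling. Scaled by library size alone, the median of all genes moved by 0.87 to 0.89, that of the members was 1.12, and 59 members were called higher beside 35.6% of all genes. The same change of scaling moved the median of all genes by -0.24 against lung and by -0.17 against spleen, and left 44 (40 higher) and 73 calls, beside 31.2% and 43.7% of all genes. Atp5s, related to a coupling factor of ATP synthase, was the only member called higher in kidney against all 3 organs (Cox8b was called in all 3 as well, but lower than in lung), at log2 differences of 1.30, 1.42 and 1.26 (edgeR adjusted p 0.0106, 0.0206 and 0.0272), from 11.0 and 7.18 RPKM in kidney to between 1.47 and 4.25 elsewhere. Without kidney control replicate 1 it was called against none of them (adjusted p 0.0725, 0.0806 and 0.0962).

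The tissue-restricted isoforms separated the organs more than the common subunits did. Cox4i2, the lung form of subunit 4, was at 34.6 and 33.9 RPKM in control lung and between 0.186 and 0.876 in the 6 other control libraries. Cox8b, of muscle and brown fat, was at 219 and 220 RPKM in lung, 28.9 and 28.6 in kidney, 0.407 and 0.229 in liver and 0.287 and 0.131 in spleen. Cox7a1, its counterpart for subunit 7a, was at 84.0 and 81.6 RPKM in lung, 33.9 and 31.6 in kidney, 1.92 and 5.08 in liver and 1.30 and 1.01 in spleen. Both isoforms were highest in lung and next in kidney, with no overlap between these organs or with liver and spleen. Cox6a2, the muscle form of subunit 6a, was highest in lung (19.1 and 17.0 RPKM), then in spleen (6.72 and 6.15) and kidney (1.52 and 3.07). Ndufa4l2 was at 16.7 and 17.4 RPKM in lung and between 1.41 and 3.33 in the other control libraries. Cox6b2, the testis form of subunit 6b, was between 4.87 and 6.18 RPKM in kidney, lung and spleen, which overlapped, and at 0.022 and 0.428 in liver. Brown fat markers summed to 32.3 and 35.9 RPKM in control kidney, 328 and 318 in lung, 21.8 and 14.4 in liver and 0.285 and 0.0885 in spleen. In each control liver library 2 of the 4 brown fat markers were under 0.1 RPKM, and in each control kidney library 0 were. White fat markers summed to 30.6 and 139 RPKM in control kidney and 426 and 421 in lung. They summed to 0.053 and 0.24 RPKM in control liver and 5.80 and 5.74 in spleen. Heart and skeletal muscle markers summed to 93.6 and 96.3 RPKM in control lung and to 0.38 to 2.82 in the other control libraries, and the part of such tissue in the isoform levels was not tested. Cox7b2, another testis form, had 0 reads in 7 of the 8 control libraries.

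Cisplatin left every member under the threshold in kidney. Of 90 members tested, 0 were called by edgeR against a log2 limit of 0.4, beside 5.05% of all genes (2.4% higher and 2.65% lower). DESeq2 called 0 members, beside 5.96% of all genes. At an unadjusted edgeR p under 0.05 there were 0 members, but 2937 of 15471 genes. The members' log2 differences lay between -0.22 and 0.56 with a median of 0.19, where the median of all genes was close to 0, and 82 of 90 were above 0. In 34 of 90 members both treated libraries were above both controls, a pattern held by 24.1% of all genes with reads, and in 3 both were below, against 31.2%. The median difference was 0.28 for complex IV, where all 11 subunits were above 0, 0.21 for ATP synthase, 0.20 for complex III and 0.19 for the accessory subunits of complex I. It was 0.07 for complex II, 0.01 for the core subunits and 0.02 for the assembly factors of complex I.

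Ndufaf4, an assembly factor of complex I, had the largest difference in kidney, with 21.6 and 14.6 RPKM in controls against 30.0 and 20.9 after cisplatin (log2 difference 0.56 ± 0.24 SE, edgeR adjusted p = 0.46). The lower treated library fell below the higher control, so the groups overlapped. Cox7c, a small complex IV subunit, was at 113 and 89.2 RPKM against 128 and 130 (0.42 ± 0.17, edgeR adjusted p = 0.623). Ndufb6, an accessory subunit in the membrane arm of complex I, was at 144 and 134 RPKM against 179 and 166 (0.37 ± 0.15, edgeR adjusted p = 0.715). Both treated libraries were above both controls for Cox7c and Ndufb6, by less than the test required. Atp5b was at 987 and 1041 RPKM against 1072 and 1116, and Sdha, the flavoprotein of complex II, at 282 and 302 against 277 and 293.

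**Figure D2:**
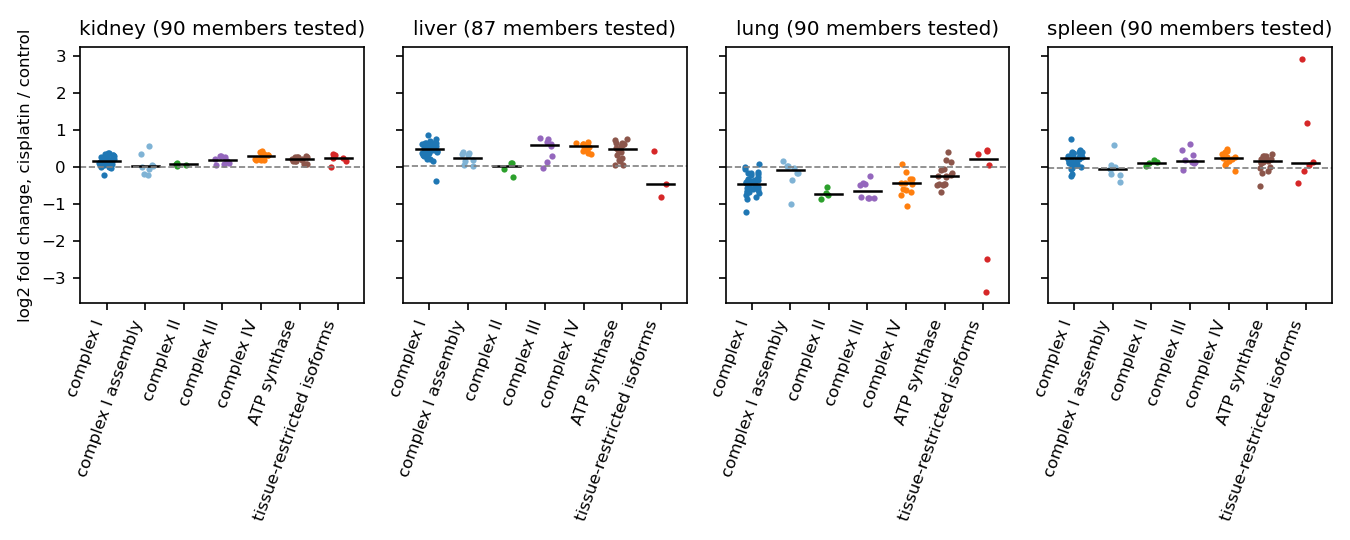
Log2 fold change of RNA, cisplatin against control, for each member tested (points) by complex in 4 organs, with group medians as black bars and the median of all genes tested as a dashed line. In kidney the points lie between -0.22 and 0.56, and in lung most lie below 0, with Cox8b (-3.36) and Cox7a1 (-2.47) lowest.

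The kidney difference was also read against gene length. Members are short, with a median length of 7.456 kb (0.953 to 155.909 kb) against 20.6 kb for all protein-coding genes. Among genes under 5 kb the median log2 difference in kidney was 0.20 for 30 members and 0.27 for 2148 other genes. From 5 to 10 kb it was 0.22 for 30 members and 0.22 for 2026 others, and from 10 to 20 kb 0.14 for 17 members and 0.17 for 2938 others. From 20 to 50 kb it was 0.03 for 11 members and -0.01 for 4108 others, and over 100 kb -0.04 for 2 members and -0.72 for 2004 others. In lung the members departed from their length classes, with medians of -0.30 under 5 kb and -0.44 from 5 to 10 kb against 0.14 and 0.15 for other genes.

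Regulators of mitochondrial gene expression had calls in kidney. Of 18 biogenesis regulators tested, 1 rose and 2 fell, beside 2.4% of all genes called higher and 2.65% lower. Esrrg, the estrogen-related receptor gamma, which acts on many respiratory chain promoters, was at 16.5 and 13.6 RPKM in controls and at 2.43 and 2.55 after cisplatin (log2 difference -2.52 ± 0.18 SE, edgeR adjusted p = 0.00349). Ppargc1b, a coactivator of these receptors, was at 3.17 and 3.25 RPKM against 0.770 and 0.649 (-2.13 ± 0.26, edgeR adjusted p = 0.016). Pprc1, a related coactivator, rose from 2.23 and 2.34 to 8.66 and 6.89 RPKM (1.81 ± 0.20, edgeR adjusted p = 0.0139). In each of these 3 genes the groups did not overlap. Ppargc1a, the coactivator PGC-1 alpha, was at 19.1 and 22.4 RPKM against 10.4 and 7.86 and missed the threshold (-1.13 ± 0.21, edgeR adjusted p = 0.0571). Esrrg spans 606.095 kb, Ppargc1a 113.477 kb, Ppargc1b 102.296 kb and Pprc1 28.03 kb, and the part of length in these differences was not tested. Esrra, the receptor's alpha form, was at 33.7 and 29.4 RPKM against 24.1 and 21.6 (log2 difference -0.40), Nrf1 differed by -0.42, Gabpa by 0.09 and Tfam, which maintains and transcribes mitochondrial DNA, by 0.02, and 0 of these 4 were called. Among 23 genes of complex IV assembly and cytochrome c, Cox10, which makes heme for complex IV, fell from 8.44 and 9.93 to 3.10 and 3.66 RPKM (-1.38 ± 0.23, edgeR adjusted p = 0.0421), and it spans 116.842 kb. This is 1 call of 23, where 5.05% of all genes were called. No gene was called among 13 of the tricarboxylic acid cycle, 4 of ATP synthase assembly, 7 further assembly factors of complex I, or 11 for complexes II and III with Cyc1, cytochrome c1, at 185 and 213 RPKM against 190 and 216.

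In liver 0 of 87 members tested were called by edgeR, beside 0.0% of all genes, and 0 by DESeq2, beside 1.34%. At an unadjusted edgeR p under 0.05 there were 0 members, but 1287 of 13868 genes. The median log2 difference was 0.45 for members and 0.03 for all genes, and 81 members were above 0. The value depended on which treated library was left out. Without liver cisplatin replicate 1 the median was 0.91 and 9 members were called higher, beside 3.87% of all genes called higher, 9.0% lower and a median of -0.05. Without replicate 2 the members' median was -0.28 and 0 were called, beside 2.45% of all genes and a median of -0.04. Ndufa2, an accessory subunit of complex I, was at 99.7 and 129 RPKM in controls and at 109 and 279 after cisplatin (0.87 ± 0.59 SE, edgeR adjusted p = 0.847). Uqcr10, a small subunit of complex III, was at 106 and 151 RPKM against 129 and 278 (0.75 ± 0.56, edgeR adjusted p = 0.869). The groups overlapped in both genes, and treated replicate 2 was the highest library. Both treated libraries exceeded both controls in 15 of 88 members, against 20.1% of all genes, and both were below in 1, against 18.0%. By length, the liver medians were 0.56 for 28 members and 0.46 for 1762 others under 5 kb, 0.46 for 30 and 0.33 for 1820 from 5 to 10 kb, 0.47 for 16 and 0.19 for 2714 from 10 to 20 kb, and 0.16 for 11 and -0.02 for 3803 from 20 to 50 kb. The 2 members over 100 kb had 0.35 and 1737 others -0.94.

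In lung most members were lower in the libraries labelled cisplatin. Both treated libraries were below both controls in 72 of 90 members, against 32.9% of all genes, and above them in 7, against 34.1%. The median log2 difference was -0.43, with all genes at 0.01, and 13 members were above 0. With the control pair counted as 1 sample, 0 of 90 members were called by edgeR, beside 0.366% of all genes, and 0 by DESeq2, beside 0.857%. At an unadjusted edgeR p under 0.05 there were 4 members and 1416 of 19100 genes. The median difference was -0.73 for complex II, -0.66 for complex III, -0.59 for the core subunits of complex I and -0.46 for complex IV, and every subunit of these 4 classes was below 0. It was -0.39 for accessory subunits, -0.26 for ATP synthase and -0.10 for assembly factors.

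With every lung library counted as a replicate, 20 of 90 members fell and 0 rose, beside 7.88% of all genes called lower, 1.56% higher and 9.44% in either direction. With no test, 4 members were lower by a log2 fold of 1 or more and 0 higher, beside 11.1% and 5.93% of all genes. Ndufa10, an accessory subunit of complex I, was at 45.0 and 45.6 RPKM in controls and 20.4 and 19.0 after cisplatin (-1.20, edgeR adjusted p = 0.00248 in this count). Cox5a, a complex IV subunit next to the catalytic core, was at 44.9 and 43.1 RPKM against 20.99 and 21.03 (-1.07, edgeR adjusted p = 0.00376). Sdhb, the iron-sulfur subunit of complex II, was at 78.1 and 75.1 RPKM against 42.6 and 40.7 (-0.88, edgeR adjusted p = 0.00648). The groups were well apart in all 3, and each of these calls was absent when the control pair counted once, for example Cox5a at -1.06 ± 0.39 SE with an edgeR adjusted p of 0.598. The group of 20 also held Sdha, Sdhd, Uqcrfs1, Uqcrc1, Uqcrc2 and Uqcrq, so that 3 of 4 complex II genes were in it.

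The 2 lowest members in lung were isoforms of muscle and brown fat. Cox8b was at 219 and 220 RPKM in lung controls and at 32.4 and 11.4 after cisplatin (log2 difference -3.36 ± 0.79 SE, edgeR adjusted p = 0.147). Cox7a1 was at 84.0 and 81.6 RPKM against 19.2 and 10.9 (-2.47 ± 0.50, edgeR adjusted p = 0.101). Both had treated libraries far below the controls, and both were called when every library counted (adjusted p 0.0153 and 0.00717). Cox8a, the common partner of Cox8b, was at 377 and 390 RPKM against 272 and 231. Cox4i2 did not share the direction, at 34.6 and 33.9 RPKM against 51.6 and 36.0.

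Markers of several other tissues differed between the groups as well, fat and kidney markers lower and heart and muscle markers higher after cisplatin. The summed level of 4 brown fat markers was 328 and 318 RPKM in lung controls and 21.5 and 6.95 after cisplatin. Ucp1, the uncoupling protein that defines brown fat, was at 192 and 185 RPKM against 11.4 and 0.331, and Cidea at 129 and 128 against 9.33 and 5.84. The 4 white fat markers summed to 426 and 421 RPKM against 108 and 44.1, with Adipoq at 92.3 and 93.4 against 18.6 and 7.27. The 7 kidney markers summed to 62.4 and 62.1 RPKM against 5.98 and 0.56, and the 11 heart and muscle markers to 93.6 and 96.3 RPKM against 263 and 133. The 5 lung markers overlapped, at 110751 and 111896 RPKM against 107103 and 127192, with Sftpb at 1170 and 1106 against 1503 and 1281. Of the fat markers 0 of 8 were called with the control pair counted once. The tricarboxylic acid cycle genes were lower after cisplatin (median -0.84, 0 of 13 called), with Cs, citrate synthase, at 63.3 and 60.7 RPKM against 30.2 and 24.4. The part of these other tissues in the members' lower level was not tested.

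**Figure D3:**
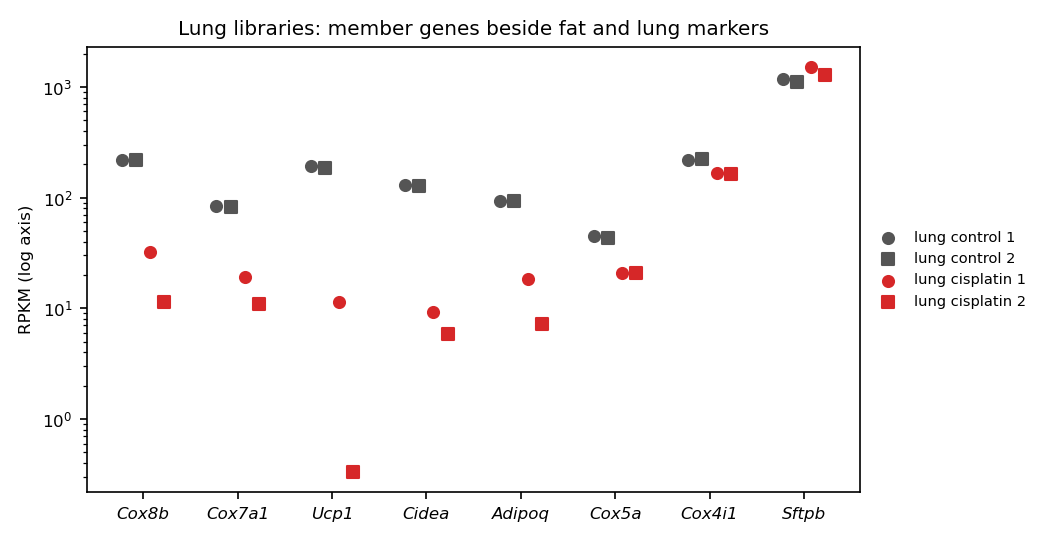
RNA level (RPKM, log axis) of Cox8b, Cox7a1, the fat markers Ucp1, Cidea and Adipoq, the common subunits Cox5a and Cox4i1 and the lung marker Sftpb in the 4 lung libraries (circles replicate 1, squares replicate 2, gray control, red cisplatin). The fat markers and both isoforms are lower in both treated libraries, Ucp1 from 192 and 185 to 11.4 and 0.331, while Sftpb is not.

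In spleen 0 of 90 members were called by edgeR, beside 0.136% of all genes, and 0 by DESeq2, beside 0.284%. At an unadjusted edgeR p under 0.05 there were 1 member and 577 of 19100 genes. The median log2 difference was 0.17 for members and -0.03 for all genes. Both treated libraries were above both controls in 62 of 90 members, against 28.7% of all genes, and below them in 8, against 33.2%. Ndufa2 was at 78.3 and 80.1 RPKM in controls against 150 and 126 (0.76, edgeR adjusted p = 1). Uqcrh, the hinge protein of complex III, was at 115 and 117 RPKM against 195 and 173 (0.63, edgeR adjusted p = 1). Both showed no overlap of groups. Cox8b was at 0.287 and 0.131 RPKM against 2.87 and 0.319 (2.92 ± 1.18 SE, edgeR adjusted p = 1), a difference carried by replicate 1. In that treated library white fat markers summed to 84.1 RPKM against 5.74 to 6.45 in the other spleen libraries. It was also highest for brown fat (1.01 against 0.0885 to 0.285) and for heart and muscle markers (4.14 against 2.18 to 2.69). The same held for liver (193 against 0.189 to 17.3) and kidney markers (19.5 against 0.482 to 9.93). Pancreas markers summed to 7.32 and 6.68 RPKM in spleen controls and to 1302 and 1014 in treated spleen. The part of these tissues in the members' values was not tested.

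The response was compared between organs directly, in contrasts that share the kidney or the lung samples. By edgeR's F test 0 members were called between kidney and liver (0.0733% of all genes), kidney and lung (0.12%), kidney and spleen (0.304%) or lung and spleen (0.0105%). Between kidney and lung 6 of 90 members and 1408 of 19100 genes had an unadjusted p under 0.05, and the members' median was 0.58 against 0.04 for all genes. The largest were Cox8b at 3.61 ± 1.04 SE (edgeR adjusted p = 0.351) and Cox7a1 at 2.63 ± 0.67 (edgeR adjusted p = 0.25).

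XR-seq and Damage-seq were read per strand for the 88 members that passed the filter of the study, which asks for 10 or more GG on the TS or the NTS, 20 or more reads and under 100 kb of length and left 16502 genes. Cox7b2, Ndufaf2 and Ndufs4 did not pass. Values are reads per 1000000 reads on genes per 1000 GG of the strand. Over all 91 members, with those that did not pass, the median was 431 GG on the TS and 472 on the NTS. Of these 91, 31 overlap an annotated gene on the opposite strand, whose TS is the member's NTS.

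Excision from the transcribed strand was high in the members. The median member had 38.2 and 48.2 on the TS and 4.04 and 3.61 on the NTS in kidney XR-seq, with liver at 22.9 and 22.0 against 3.22 and 3.53, lung at 43.8 and 47.5 against 1.96 and 1.77 and spleen at 40.5 and 40.6 against 2.57 and 2.07. All genes had TS medians of 18.4 to 21.9 and NTS medians of 1.19 to 2.45. The members' TS median was thus lowest in both liver libraries and above that of all genes in all 8 libraries. Averaged over organs, 82 of 88 members differed between strands, 78 with more TS and 4 with more NTS reads (edgeR, beside 78.1% of all genes, 68.7% and 9.41% by direction). The median log2 ratio of TS to NTS was 4.04 for members and 2.70 for all genes. By class it was 4.96 for assembly factors, 4.69 for complex IV, 4.61 for complex III, 4.60 for accessory subunits, 4.49 for complex II, 3.05 for core subunits and 2.92 for ATP synthase.

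**Figure D4:**
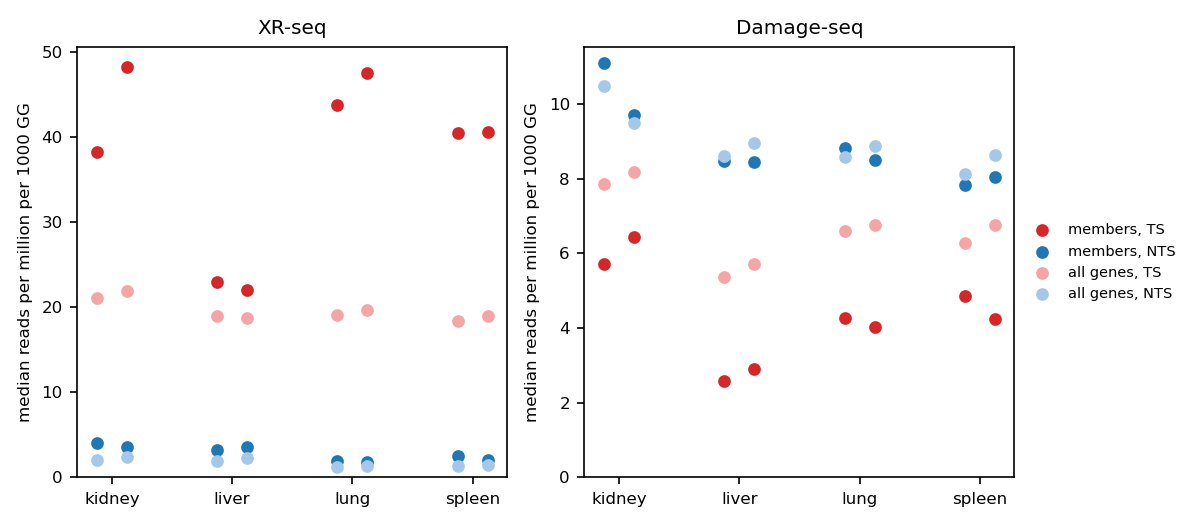
Median XR-seq and Damage-seq reads per 1000000 reads on genes per 1000 GG of the members and of all genes past the filter, on TS and NTS in each library. In XR-seq the members' TS medians (22.0 to 48.2) lie above those of all genes, and in Damage-seq their TS medians (2.58 to 6.43) lie below.

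Ndufa11, an accessory subunit of complex I, had the highest ratio, with 107 and 154 on the TS in kidney, with liver at 80.0 and 79.1, lung at 162 and 166 and spleen at 153 and 154, and 0 to 3.83 on the NTS (log2 ratio 7.03 ± 0.62 SE, edgeR adjusted p = 5.2e-06). Cox8a had 55.4 and 85.7 on the TS in kidney, with liver at 30.1 and 24.7, lung at 43.5 and 53.2 and spleen at 51.3 and 76.5, with 0 to 3.83 on the NTS (6.01 ± 0.89, edgeR adjusted p = 0.000194). Its isoform Cox8b showed the opposite order in every library. Cox8b had 65.2 and 69.4 on the NTS in kidney, with liver at 56.0 and 62.1, lung at 52.8 and 65.5 and spleen at 36.9 and 64.9, against 0 to 7.76 on the TS (-4.92 ± 0.56, edgeR adjusted p = 3.21e-05). Cox7a1 had 36.6 to 88.1 on the NTS and 5.08 to 28.8 on the TS (-2.29 ± 0.36, edgeR adjusted p = 0.000292). Ndufa4l2 (-1.69) and Cox4i2 (-1.32) were the other members with more NTS reads, so all 4 were tissue-restricted isoforms. Of the 2 remaining isoforms, Cox6b2 had more TS reads (1.33, edgeR adjusted p = 0.0254) and Cox6a2 was not called (-0.76). The other members without a call were Atp5j2, Ndufa3, Ndufab1, Ndufaf3 and Ndufa6.

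Genes that face a member end to end lie on its opposite strand, and these neighbours were looked up after the values were seen. Psmd13 ends 301 bases from Cox8b and stood at 25.3 to 40.3 RPKM in treated organs. Capns1 lies 857 bases from Cox7a1 at 40.7 to 129 RPKM, Shmt2 overlaps Ndufa4l2 by 32 bases, and Bcl2l1 lies 15630 bases from Cox4i2. In all, 29 members had an opposite-strand gene of the tables that overlapped them or faced them within 1000 bases, with a median log2 ratio of 2.72 and 4 below 0 (Cox8b, Cox7a1, Ndufa4l2 and Cox6a2, which Itgad overlaps). The 59 others had a median of 4.62, with Cox4i2 below 0. Whether transcription from the neighbour gave the NTS reads was not tested.

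Few members were called between kidney and the other organs in XR-seq. On the TS 6 of 88 members differed between kidney and the mean of the other 3 organs, beside 29.1% of all genes, and the members' median log2 difference was 0.03. Atp5b had 62.7 and 48.3 in kidney, with liver at 16.45 and 15.96, lung at 28.5 and 38.2 and spleen at 24.1 and 34.0 (0.93 ± 0.23 SE, edgeR adjusted p = 0.00927). Kidney lay above every other library. Cox6b2 (1.59), Atp5mpl (0.56) and Cox5a (0.50) were also higher, and Ndufaf7 (-0.79) and Ndufaf5 (-0.38), assembly factors of complex I, lower, with edgeR adjusted p-values of 0.0366 to 0.0492. Without kidney replicate 2 there were 24 calls, 20 of them lower, beside 39.1% of all genes (21.7% lower), and without replicate 1 there were 4, beside 29.1%. On the NTS 4 members were lower in kidney and 0 higher, beside 10.8% of all genes (6.24% lower and 4.59% higher). Cox5a had 4.46 and 5.42 in kidney, with liver at 8.97 and 9.59, lung at 7.68 and 7.11 and spleen at 10.4 and 9.70 (-1.36 ± 0.30, edgeR adjusted p = 0.0179). It was the only member called on both strands, higher on the TS and lower on the NTS, while Ndufs7 (-1.22), Ndufb2 (-0.86) and Atp5j2 (-0.72) were called on the NTS alone. Cox5a overlaps Gm26631 on the opposite strand. The NTS count depended on kidney replicate 2, since 16 members were called without it, beside 30.0% of all genes. The ratio of strands differed between kidney and the other organs for 0 of 88 members, beside 5.35% of all genes (2.14% higher and 3.21% lower). At an unadjusted edgeR p under 0.05 there were 12 members and 3348 of 16502 genes. Cox5a was nearest at 1.57 ± 0.44 (edgeR adjusted p = 0.0831). This count also depended on kidney replicate 2.

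Damage-seq gave few reads per member, with medians of 3 to 17 on the TS and 6 to 35.5 on the NTS per library, and single members are accordingly imprecise. The libraries of each organ were counted as replicates, although their counts lay close to the noise of read sampling. The median member had 5.70 and 6.43 on the TS and 11.1 and 9.69 on the NTS in kidney, with liver at 2.58 and 2.91 against 8.48 and 8.44, lung at 4.26 and 4.02 against 8.82 and 8.49 and spleen at 4.86 and 4.25 against 7.82 and 8.04. All genes had TS medians of 5.36 to 8.17, above the members' in every library. Averaged over organs, 62 of 88 members had fewer TS than NTS reads and 1 had more (edgeR, beside 47.7% of all genes, 44.9% lower and 2.81% higher), and the median log2 ratio was -1.05 against -0.36. Complex IV had a median of -1.71, complex III -1.56, complex II -1.39, ATP synthase -1.32 and the core subunits -0.96, with 7 of 7 core subunits and 4 of 4 complex II subunits called. The isoforms had a median of 0.51.

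Atp5h, the d subunit in the stalk of ATP synthase, had 8.30 and 9.99 on the TS in kidney and 0 to 5.04 in the other organs, against 10.7 to 22.8 on the NTS in all 8 libraries (-2.59 ± 0.39 SE, edgeR adjusted p = 5.06e-09). Cox8a had 0 to 8.99 on the TS and 3.40 to 15.9 on the NTS (-1.71 ± 0.51, edgeR adjusted p = 0.00284). Cox7a1 was the member with more TS reads, at 25.7 and 14.9 on the TS in kidney against 8.27 and 8.26 on the NTS (1.21 ± 0.42, edgeR adjusted p = 0.0117). Cox8b had 0 to 16.2 on the TS and 2.14 to 11.6 on the NTS and was not called (0.89 ± 0.57, edgeR adjusted p = 0.207). In 7 members at least 1 organ had 0 reads on a strand, so that their fitted ratios depend on a prior count. With 3 reads put in that place the log2 ratio was -0.72 for Cox5b, -1.79 for Cox6a1 and -1.58 for Uqcr10, and the members' median was -1.04.

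**Figure D5:**
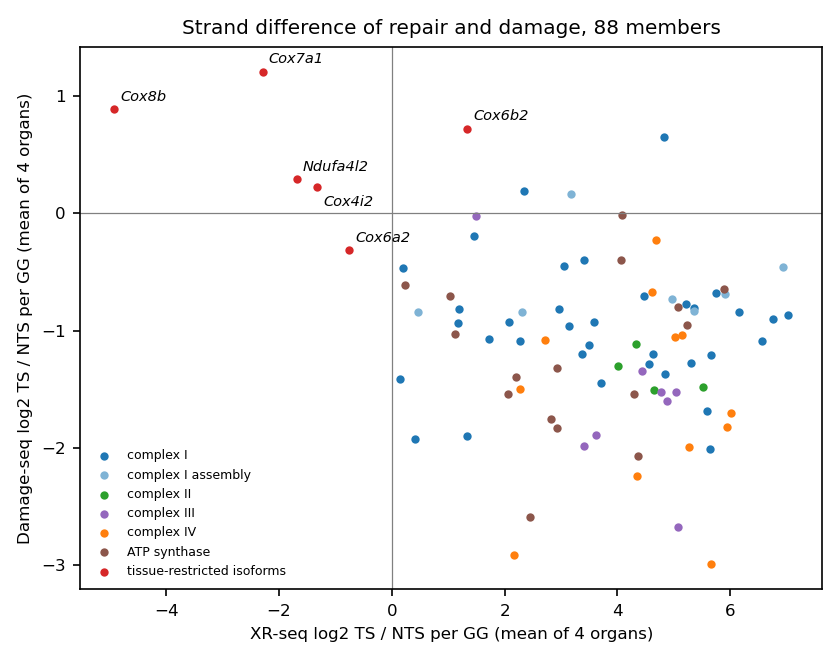
Log2 ratio of TS to NTS per GG in XR-seq (x axis) and Damage-seq (y axis) for 88 members, mean of 4 organs, with 6 tissue-restricted isoforms named. Most members lie at right and below 0, with medians of 4.04 and -1.05, and Cox8b (-4.92, 0.89) and Cox7a1 (-2.29, 1.21) lie at upper left.

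Between kidney and the other organs 8 of 88 members had more Damage-seq TS reads, beside 20.3% of all genes called (11.6% higher and 8.7% lower), and DESeq2 called 0. Ndufs7, a core subunit of complex I, had 9.66 and 10.9 in kidney, with liver at 1.58 and 4.58, lung at 4.19 and 3.43 and spleen at 2.03 and 5.05 (1.24 ± 0.38 SE, edgeR adjusted p = 0.0106). Atp5d, the delta subunit of ATP synthase, had 9.28 and 19.8 in kidney and 2.85 to 8.89 elsewhere (1.13 ± 0.31, edgeR adjusted p = 0.00396). Kidney was above all other libraries in both. The other members called were Ndufb10 (2.23), Atp5h (2.09), Ndufa6 (1.98), Ndufs8 (1.61), Ndufa11 (1.38) and Ndufaf8, whose spleen libraries had 0 TS reads. With 3 reads in their place and scaling by all reads on genes, Ndufaf8 was 1.15 higher in kidney on the log2 scale. The members' median under that other scaling was 0.66. In the edgeR fit the members' median was 0.35 and that of all genes 0.07. With 1 kidney library left out, 3 and 1 members were called, beside 10.9% and 7.91% of all genes. On the NTS 9 members differed, 8 higher and Sdha lower, beside 20.7% of all genes (11.5% higher and 9.2% lower), and DESeq2 called 2. Atp5d (1.34) and Ndufs7 (1.23) were higher on this strand as well, with Atp5j2 (1.24), Ndufa11 (1.09), Atp5b (1.06), Cox4i1 (1.00), Uqcr11 (0.84) and Sdhb (0.53), and Sdha was at -0.82 (edgeR adjusted p = 0.00565). The medians were 0.23 for members and 0.01 for all genes, and 4 members were called with either kidney library left out, beside 7.04% and 11.0% of all genes.

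Sdha was the member whose ratio of strands in Damage-seq differed between kidney and the other organs (1 of 88, beside 1.35% of all genes, 1.23% higher and 0.121% lower). Its TS had 3.93 and 6.22 in kidney, with liver at 3.14 and 1.95, lung at 2.82 and 2.49 and spleen at 3.53 and 2.15. Its NTS had 6.03 and 7.14 in kidney, with liver at 9.28 and 9.67, lung at 12.1 and 7.45 and spleen at 9.72 and 11.3. Kidney was thus highest on the TS and lowest on the NTS in both libraries (difference of log2 ratios 1.48 ± 0.38 SE, edgeR adjusted p = 0.0215), and without kidney replicate 2 the call was absent. Sdha lies at chr13:74322254-74350280 on the minus strand and overlaps Gm16125 on the opposite strand.

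RNA level and repair were compared across members within each treated library, as a description, since both are set by the same genes and organ. Spearman's rho between RPKM and XR-seq TS was -0.12 to 0.22 over 88 members in the 8 pairs of libraries, and 0.62 to 0.75 over 16502 genes. Between RPKM and Damage-seq TS it was -0.40 to -0.24 over members and -0.64 to -0.19 over all genes.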

How the data were processed

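Members and gene lists were chosen with earlier results of these data known. The authors deposited read counts per gene. For RNA-seq they aligned reads to mm10 with STAR, removed mapping qualities under 20 and counted with featureCounts. For XR-seq and Damage-seq they used cutadapt for trimming, BWA for alignment and Picard against duplicates. Only reads with GG where the assay places the adduct were counted, per strand. Tool versions are not given in the sources used here. A row without a gene (1 per XR-seq or Damage-seq file) was dropped.

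Counts were tested in edgeR 4.0.16 (R 4.3.3) with Benjamini-Hochberg adjustment over all genes, threshold 0.05. TMM scaling was used in all but the strand ratios, where both strands of a library were scaled by its total. RNA contrasts used glmTreat against a log2 fold change of 0.4, and strand, organ and interaction contrasts the quasi-likelihood F test, with the GG number of each strand as offset in strand ratios. Two-sided tests were used throughout. Control pairs of lung and spleen were summed, leaving 14 RNA samples, and a lone sample is assumed to vary like the others. RPKM was computed from the counts and used for description only. Counting precision depends on depth, from 1571167 reads on genes upwards. The tests were also run on simulated counts with a fixed spread not taken from these data, so this gives no error rate here. DESeq2 1.42.0, other scalings, filters, summing, a replicate block and leaving out libraries were tried. Named members were, per comparison, the largest called in each direction (at most 6, or 4 for Damage-seq and strand contrasts), or those with the smallest p where few were called, with the isoform pairs, Sdha to Sdhd and a few regulators always. Other named genes were chosen after their values were seen. Sequences are from RefSeq (GRCm38.p6). The sum of the spleen marker list is not reported here.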

Additional observations from a re-analysis of the deposited data

Results flagged for a closer look

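Sdha, the flavoprotein of complex II, was picked out by a test of the strand difference between kidney and the other organs in Damage-seq. It was the 1 call among 88 members, beside 1.35% of all genes called. Its log2 ratio of TS to NTS was higher in kidney by 1.48 ± 0.38 SE (edgeR adjusted p = 0.0215), from 150 TS and 419 NTS reads over 8 libraries, and the call was lost without kidney replicate 2.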

How the results depend on the processing

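Each result was recomputed under the alternatives, of which library size scaling, members without overlap, and the interaction and kidney leave-out settings of the strand ratios were chosen after seeing the data. Among recomputed counts and medians 207 kept their size and 61 moved, and among values of single named members 463 kept their direction and side of the threshold, 49 lost and 24 gained a call. The cause was not tested where a value moved. Where no share of all genes stands beside a count below, the count describes the setting only and is not a result about the members. In cisplatin RNA, library size scaling gave a kidney median of 0.13, and leaving out a library gave 0.112 to 0.242. In liver, leaving out a library gave 0 to 9 calls and medians of -0.281 to 0.908, and without cisplatin replicate 2 Ndufa2 (-0.33 to 1.49 over the libraries left out) and Uqcr10 (-0.26 to 1.32) turned. In lung there were 2 calls with no filter, beside 1.39% of all genes. With every library a replicate there were 20, beside 9.44%, and 4 passed a log2 fold of 1 with no test, beside 17.0%. Leaving out a lung library gave medians of -0.446 to -0.367. In spleen 2 passed a log2 fold of 1 with no test, beside 13.0% of all genes.

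In control kidney, members called against all 3 organs numbered 30 by library size, 2 with every library a replicate and 0 to 1 with a library left out. By library size 59 were called against liver (median 1.12), beside 42.8% of all genes, and the medians against lung and spleen were 1.13 and 1.79. Against lung, 82 were called with every library a replicate (78 higher and 4 lower), beside 45.4% of all genes (20.2% higher and 25.2% lower). Of the responses compared between organs, 1 member was called for kidney and lung and 1 for lung and spleen with every library a replicate.

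For XR-seq in kidney, TS calls were 10 by library size and 4 to 24 with a library left out. NTS calls were 10 by DESeq2, 7 with no filter, 2 without overlapping members and 4 to 16 with a library left out, with medians of 0.22 by library size, -0.29 without overlapping members and -0.489 to 0.120 with a library left out. Strand calls without overlapping members were 48 (median 4.60), and the kidney strand difference had 1 call with no filter and 0 to 12 with a library left out. For Damage-seq, TS calls were 0 by DESeq2 and 1 to 3 with a library left out, with medians of 0.48 with no filter, 0.42 without overlapping members and 0.216 to 0.314 with a library left out. NTS calls were 2 by DESeq2, 18 with no filter (median 0.37), 4 without overlapping members (0.29), and 4 in both cases with a library left out (0.187 to 0.291). Strand calls without overlapping members were 34, and the kidney strand difference had 0 to 1 calls and medians of 0.0751 to 0.558 with a library left out.

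The sample titles give same-numbered libraries only a number in common and name no batch. The study states that it adjusted for a known batch with ComBat, which was not done here. Their deviations correlated at 0.548 (kidney), 0.442 (liver), 0.067 (lung) and 0.386 (spleen). With the replicate block, 21 members were called in lung RNA, all lower, beside 11.2% of all genes (9.0% lower and 2.24% higher). In kidney RNA the block called 0 members, beside 20.6% of all genes against 5.05% without it. In liver RNA it also called 0 members, beside 7.32% of all genes against 0% without it. The block also gave 3 calls against all 3 organs, 82 against lung, 2 in XR-seq TS and 1 for lung and spleen. Its XR-seq NTS median was -0.292. Few Damage-seq reads per member limit what single members can show.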
